A study of Mus musculus with 21 samples.

Results

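Classical cadherins are cell adhesion proteins of the plasma membrane, and 10 of their genes were read from a table of 21878 genes: Cdh2, Cdh4, Cdh6, Cdh7, Cdh8, Cdh9, Cdh10, Cdh11, Cdh13 and Cdh22. They were chosen by symbol, with earlier results of these data known, and all 10 had enough counts to be tested. The further gene lists below were chosen in the same knowledge. Counts of called genes set beside shares of all genes are therefore description only. The values came from spiral ganglion neurons, the first neurons of the auditory pathway, collected by micropipette from mice at postnatal day 7, about 50 neurons to a library. An adeno-associated virus had delivered EGFP (control, given the genotype WT in the labels), a site-mutated HCN2 channel (DN-mHCN2, called DN-HCN2 here) or a truncated SK3 channel, and both channel constructs are described as dominant-negative. Each virus was sampled in both cochlear regions, the apex, tuned to low frequencies, and the base, tuned to high ones. Control and DN-HCN2 had 4 apical libraries each and truncated SK3 had 3, while control had 4 basal libraries and each construct had 3. All animals had received a virus, so the controls were not uninjected animals. The promoter that drove the inserts, the viral dose and the mouse strain are not given in the sources used here.

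Classical cadherins bind cadherins on a neighbouring cell through calcium-dependent extracellular domains. Their cytoplasmic tails bind beta-catenin and p120-catenin, and alpha-catenin links the complex to actin. Type I members such as Cdh2 (N-cadherin) and Cdh4 (R-cadherin) mediate strong adhesion, while type II members are expressed in combinations that differ between groups of neurons and contribute to their sorting and to synapse formation. Cdh13 (T-cadherin) has related extracellular domains but is held in the membrane by a lipid anchor and has no cytoplasmic tail, so it does not bind catenins. In the cochlea, N-cadherin is known from both neurons and the cells around them.

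Library totals ran from 10411634 to 15138780 counts. Levels are given as CPM, counts scaled to a common library total. The defining neuronal markers were present in every library: the sum over 15 such markers lay between 12391 and 21722 CPM. Markers of Schwann cells and satellite glia, the cells that wrap these neurons, were also abundant, with 15 genes summing to between 9302 and 42600 CPM. Macrophage markers summed to 1760 and 1639 CPM in DN-HCN2 base replicates 2 and 3, against at most 513 CPM elsewhere. Oligodendrocyte markers summed to over 500 CPM in 4 libraries, control base replicates 1, 3 and 4 and truncated SK3 base replicate 1, and to at most 99.6 CPM in the other 17. Supporting cell markers summed to 10694 CPM in DN-HCN2 apex replicate 1. Counts at Hcn2 did not separate the libraries by virus: its group means lay between 28.7 and 62.2 CPM, with ranges that overlapped between DN-HCN2 and control in both regions. Kcnn3, which encodes SK3, stayed at or below 1.94 CPM in every library, and the counts cannot tell the inserts from the native transcripts.

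The members covered a wide range of levels. Dividing CPM by the length of all annotated exons of a gene gives a rough comparison between genes. On this scale Cdh9, a type II cadherin, had the highest mean, at 16.7 ± 4.68 CPM per kb (SD, n = 21 libraries). The order of Cdh9 and Cdh2 depends on the length used. The exons of Cdh2 total 8066 bases and its longest transcript has 4843, while both lengths are 3539 bases for Cdh9. Cdh2 followed at 10.5 ± 2.84 CPM per kb. A middle group held Cdh6 at 5.56 ± 2.82, Cdh22 at 4.72 ± 3.85, Cdh4 at 3.63 ± 1.16 and Cdh11 at 3.47 ± 2.05 CPM per kb. Within that group the difference between each pair of neighbours was smaller than the larger of their SDs. These SDs include differences between regions and viruses and describe the spread of libraries, not the error of a mean, and the order was not tested. Cdh10 stood lower at 1.27 ± 0.461 CPM per kb, then Cdh13 at 0.413 ± 0.336, Cdh8 at 0.201 ± 0.26 and Cdh7 at 0.0782 ± 0.095 CPM per kb, and the last 3 were again not separated beyond their spread. Of the 9 pairs of neighbours in this order, 4 differed by more than the larger SD on this scale. They were Cdh9 and Cdh2, Cdh2 and Cdh6, Cdh11 and Cdh10, and Cdh10 and Cdh13. The place of Cdh10 also depends on the length used, as its exons total 10051 bases and its longest transcript has 3765. Levels per length of transcript were not compared. The exons of Cdh9 overlap an antisense gene over 6.33% of their length, and the counting is not stated to use strand, so its level may include some antisense reads.

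**Figure D1:**
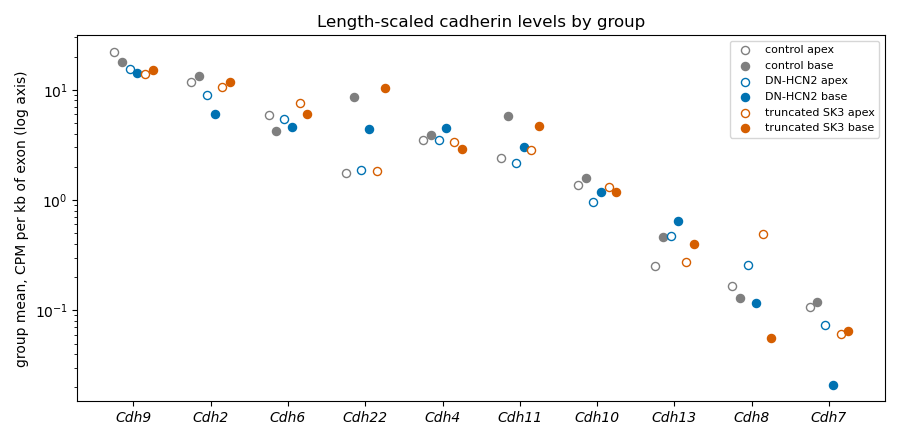
Group means of the 10 cadherin genes in CPM per kb of exon on a log axis, with genes ordered by their mean over all libraries; open points are apex, filled points base, and colours mark control, DN-HCN2 and truncated SK3. Cdh9 and Cdh2 led in the mean over all libraries, and the Cdh22 base means in control and under truncated SK3 lie above all 3 of its apex means.

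Cdh2, which encodes N-cadherin (chromosome 18, bases 16588877 to 16809246, minus strand, GRCm38), was lower under DN-HCN2. In the base, the 4 control libraries had 94.1, 105.3, 118.5 and 110.0 CPM of Cdh2. The 3 DN-HCN2 base libraries had 54.4, 45.7 and 44.3 CPM, so every one lay below every control. Here and wherever groups are said not to overlap, the share of all genes separated in this way was not counted. Cdh2 fell by 1.15 on the log2 scale in the base (SE 0.199), a 2.22-fold difference, with an adjusted p of 0.00485 by edgeR's quasi-likelihood test with Benjamini-Hochberg adjustment. It was the 1 member of 10 called lower there, where 1.3% of all tested genes were called lower.

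In the apex the Cdh2 difference was smaller and did not pass. The 4 control apex libraries had 119.8, 85.0, 84.7 and 91.1 CPM, and the 4 DN-HCN2 apex libraries had 61.5, 64.8, 89.7 and 71.7 CPM. These ranges overlapped through DN-HCN2 apex replicate 3 alone. The estimate was -0.40 on the log2 scale (SE 0.179, adjusted p 0.385 by edgeR), and none of the 10 members was called in this comparison, in which 0.2% of tested genes were called in either direction; 1 member, Cdh2, had an unadjusted p under 0.05, as did 11.9% of all genes, and DESeq2 and limma-voom called none. The test of the difference between the regional effects of DN-HCN2 gave -0.75 on the log2 scale (SE 0.264, unadjusted p 0.0101 and adjusted p 0.576 by edgeR), so a difference in the response of base and apex was not established for Cdh2. Over all genes, 0.00668% were called in that interaction, and no member was called by edgeR, DESeq2 or limma-voom.

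Averaged over both regions, Cdh2 fell by 0.78 on the log2 scale under DN-HCN2 (SE 0.133, edgeR adjusted p 0.00185), from a mean of 101 CPM in control to 60.0 CPM. Cdh2 was the 1 member of 10 called lower, where 3.61% of tested genes were called lower, and no member was called higher, where 2.45% were. Against truncated SK3, Cdh2 was also lower under DN-HCN2, by 0.62 on the log2 scale (SE 0.141, edgeR adjusted p 0.0468), the 1 member called lower where 0.434% of genes were. That call was lost in 9 of the 13 fits that each left out 1 library, namely DN-HCN2 apex replicates 1, 2 and 4, DN-HCN2 base replicates 2 and 3, truncated SK3 apex replicates 1 and 2, and truncated SK3 base replicates 1 and 2, with adjusted p up to 0.142. The comparisons of DN-HCN2 with control and with truncated SK3 share the DN-HCN2 libraries.

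Cdh2 under truncated SK3 was not called different from control by edgeR. The 3 apex libraries had 81.3, 113.5 and 62.9 CPM and the 3 base libraries 95.5, 102.6 and 85.5 CPM, and in both regions they overlapped the controls. In the apex, 81.3 and 62.9 CPM lay below the lowest control of 84.7 CPM. In the base, 85.5 CPM lay below the lowest control of 94.1 CPM. The difference from control over both regions was -0.16 on the log2 scale with a 95% interval from -0.43 to 0.11 (adjusted p 0.759 by edgeR).

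Markers of other cells moved with the Cdh2 difference. The Schwann and satellite glia sum was 9302, 10509 and 13729 CPM in DN-HCN2 base, below the 14096 to 26766 CPM of control base. Neuronal markers in DN-HCN2 base summed to 12391, 13672 and 21722 CPM, and the library with the highest neuronal sum, replicate 3, had the lowest Cdh2. Replicate 1, whose macrophage sum was 30.0 CPM, had 54.4 CPM of Cdh2. In the apex, where the glial sums of DN-HCN2 (10481 to 17007 CPM) and control (11447 to 18304 CPM) overlapped, 3 of the 4 DN-HCN2 libraries had less Cdh2 than every control. The part of these other cells in the Cdh2 result was not tested, and in pools of cells such as these fewer cells of a type and less RNA per cell cannot be told apart. Without the 2 macrophage-rich libraries the base difference was -0.95 on the log2 scale and no longer called (adjusted p 0.159), with a single DN-HCN2 base library left. Without the 4 oligodendrocyte-rich libraries it was -1.12 (adjusted p 0.5), with a single control base library left, and the value over both regions was -0.76 (adjusted p 0.0979).

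**Figure D2:**
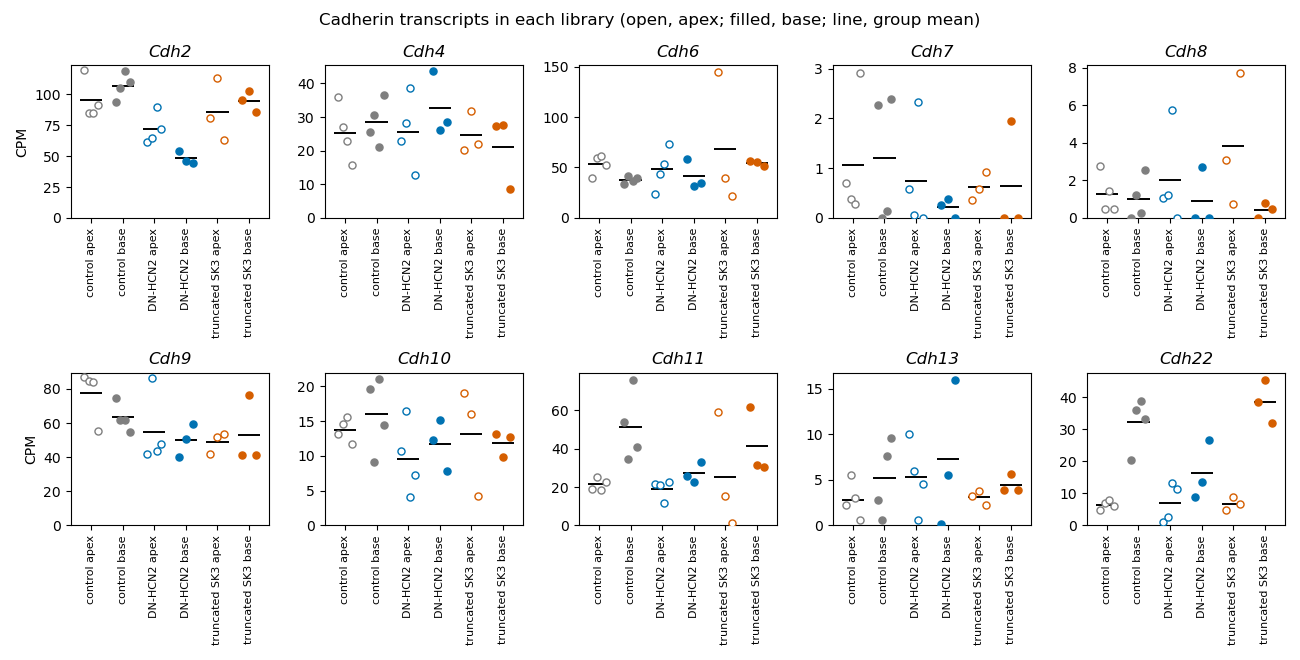
CPM of each cadherin gene in each of the 21 libraries, 1 panel per gene with its own linear axis from 0; points are libraries, open for apex and filled for base, and lines are group means. Cdh2 in DN-HCN2 base lies between 44.3 and 54.4 CPM, below all control base libraries, and Cdh22 is higher in base than in apex in control and under truncated SK3 without overlap.

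Cdh22, a type II cadherin of the nervous system (chromosome 2, bases 165111507 to 165234853, minus strand), was higher in the base than in the apex. The 4 control apex libraries had 4.72, 7.02, 8.0 and 6.12 CPM of Cdh22, and the 4 control base libraries had 20.5, 36.1, 38.7 and 33.2 CPM. Under truncated SK3, the apex libraries had 4.67, 8.91 and 6.73 CPM and the base libraries 38.4, 45.4 and 32.0 CPM. In both conditions every base library exceeded every apex library. Under DN-HCN2 the ranges met, with 0.914, 2.52, 13.3 and 11.3 CPM in the apex and 8.70, 13.5 and 26.5 CPM in the base.

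Averaged over the 3 conditions, Cdh22 rose by 2.01 on the log2 scale from apex to base (SE 0.343, edgeR adjusted p 0.00621). The mean of the 3 group means was 6.74 CPM in the apex and 29.0 CPM in the base. It was the 1 member of 10 called higher, where 0.575% of tested genes were, and it was called in all 21 fits that each left out 1 library, with values from 1.83 to 2.18. Within a condition the log2 differences were 2.31 in control (SE 0.56, adjusted p 0.381), 1.22 under DN-HCN2 (SE 0.576, adjusted p 0.406) and 2.51 under truncated SK3 (SE 0.651, adjusted p 0.235), none of them called by edgeR. The share of all genes called by edgeR in either direction was 0% in control, 0.214% under DN-HCN2 and 0.0134% under truncated SK3. For the control comparison DESeq2 gave Cdh22 an adjusted p of 0.00943, limma-voom 0.00406 and edgeR on the control libraries alone 0.00447. For truncated SK3, DESeq2 gave 0.0113. At an unadjusted p under 0.05, edgeR had 2 members in control (Cdh22 and Cdh11), 2 under DN-HCN2 (Cdh22 and Cdh2) and 1 under truncated SK3 (Cdh22), where 4.82%, 12.1% and 9.58% of all tested genes had such a p.

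The regional difference of Cdh22 was not shown to depend on the construct. The interaction was -1.09 on the log2 scale for DN-HCN2 (95% interval -2.65 to 0.47, edgeR adjusted p 0.834) and 0.20 for truncated SK3 (95% interval -1.41 to 1.80, adjusted p 1.00). No gene was called in the truncated SK3 interaction by edgeR, 0% of those tested, and no member of the 10 had an unadjusted p under 0.05 there, where 3.64% of all genes did, or was called by DESeq2 or limma-voom. Beside the DN-HCN2 interaction stands a base level of 16.2 ± 9.21 CPM (SD, n = 3) against 32.1 ± 8.07 CPM (n = 4) in control base, a log2 difference of -0.98 that did not pass (edgeR adjusted p 0.396).

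Marker sums of other cells had different ranges in the regions. Supporting cell markers summed to between 485 and 10694 CPM in apex libraries and between 48.8 and 2478 CPM in base libraries. Hair cell markers summed to between 21.4 and 1308 CPM in apex libraries and between 28.7 and 60.5 CPM in base libraries. Mean Schwann and satellite glia sums in apex and base were 15480 and 21711 CPM in control. They were 14959 and 28203 CPM under truncated SK3, and 14799 and 11180 CPM under DN-HCN2. Mean fibroblast and mesenchyme sums were 801 and 1917 CPM in control. They were 1398 and 1260 CPM under truncated SK3, and 1333 and 2120 CPM under DN-HCN2. The ranges of both sums overlapped between regions in each condition. Oligodendrocyte sums over 500 CPM occurred in base libraries only, and the 4 libraries that had them held 20.5 to 38.7 CPM of Cdh22. Of the other 6 base libraries, control base replicate 2, with an oligodendrocyte sum of 32.0 CPM, had 36.1 CPM of Cdh22, and truncated SK3 base replicates 2 and 3, with sums of 82.3 and 99.6 CPM, had 45.4 and 32.0 CPM. The 3 DN-HCN2 base libraries, with sums of 32.6, 29.9 and 39.5 CPM, had 8.70, 13.5 and 26.5 CPM of Cdh22. The part of these cells in the Cdh22 result was not tested. Without the 4 oligodendrocyte-rich libraries the regional difference was 2.07 on the log2 scale with an adjusted p of 0.142. Without the 2 macrophage-rich libraries it was 1.72 with an adjusted p of 0.0586.

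**Figure D3:**
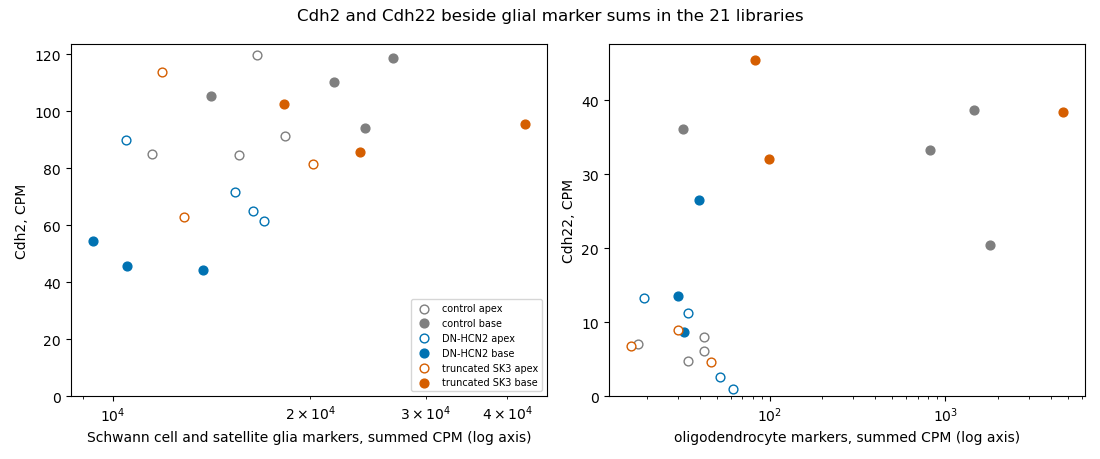
Left, CPM of Cdh2 against the summed CPM of Schwann and satellite glia markers on a log axis; right, CPM of Cdh22 against the summed CPM of oligodendrocyte markers on a log axis, with 1 point per library and colours as in the other plots. The 3 DN-HCN2 base libraries lie lowest for Cdh2, and the base libraries with oligodendrocyte sums of at most 99.6 CPM spread from 8.70 to 45.4 CPM of Cdh22, around the 20.5 to 38.7 CPM of the 4 libraries with sums over 500 CPM.

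Cdh11, a type II cadherin known from mesenchymal cells and from neurons, had its highest group mean in control base. Control apex libraries had 19.1, 25.2, 18.5 and 22.9 CPM and control base libraries 53.8, 34.8, 75.9 and 41.1 CPM, with no overlap. Under DN-HCN2 the base libraries (25.6, 22.9 and 33.0 CPM) again exceeded the apex libraries (21.4, 21.1, 11.9 and 22.6 CPM), by a small margin. Under truncated SK3 the apex libraries were scattered, at 59.2, 15.2 and 1.26 CPM, across and below the base values of 62.0, 31.7 and 30.4 CPM. Averaged over the 3 conditions, base exceeded apex by 0.82 on the log2 scale (SE 0.367), which did not pass (adjusted p 0.311 by edgeR). It was called when truncated SK3 apex replicate 1 was left out, with a value of 1.37 and an adjusted p of 0.0287. Fibroblast and mesenchyme markers summed to 3752 CPM in control base replicate 3, which had the highest Cdh11 of all libraries. They summed to 548 CPM in control base replicate 4, which had 41.1 CPM of Cdh11. In DN-HCN2 base replicate 1 they summed to 3717 CPM, beside 25.6 CPM of Cdh11. The part of these cells in the Cdh11 result was not tested. In the base, the 3 DN-HCN2 libraries lay below all 4 controls for Cdh11, with a log2 difference of -0.92 (SE 0.647, adjusted p 0.482).

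Cdh9 had its highest group mean in control apex. Control apex libraries had 87.1, 84.6, 84.2 and 55.4 CPM, and control base libraries 74.6, 62.0, 61.8 and 54.8 CPM. Under DN-HCN2 the values were 42.1, 86.3, 43.4 and 47.7 CPM in the apex and 40.2, 50.9 and 59.7 CPM in the base. Under truncated SK3 they were 42.0, 51.8 and 53.6 CPM in the apex, all below the control apex, and 41.1, 76.2 and 41.5 CPM in the base. Over both regions the log2 fold changes were -0.42 for DN-HCN2 (SE 0.182, unadjusted p 0.0323, adjusted p 0.18) and -0.46 for truncated SK3 (SE 0.19, unadjusted p 0.0247, adjusted p 0.382) by edgeR, and neither passed. These comparisons share the control libraries. Leaving out DN-HCN2 apex replicate 2 brought the DN-HCN2 value to -0.57, with an adjusted p of 0.0495.

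No member was called by edgeR under truncated SK3. Over both regions 0.735% of tested genes were called in either direction, in the apex 0.254% and in the base 0.147%. Of the 10 members, 1 had an unadjusted p under 0.05 over both regions and 1 in the apex, Cdh9 in each, and none in the base, near the 10.3%, 8.51% and 5.51% of all genes with such a p; DESeq2 and limma-voom called no member in these 3 comparisons. The median log2 fold change of the 10 members over both regions was -0.10 for truncated SK3 and -0.43 for DN-HCN2, beside medians of 0.01 and 0.03 over all tested genes. Under DN-HCN2, 7 of the 10 members had negative values, as did 47.5% of all genes, and under truncated SK3 also 7 of 10, beside 49.0% of all genes.

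**Figure D4:**
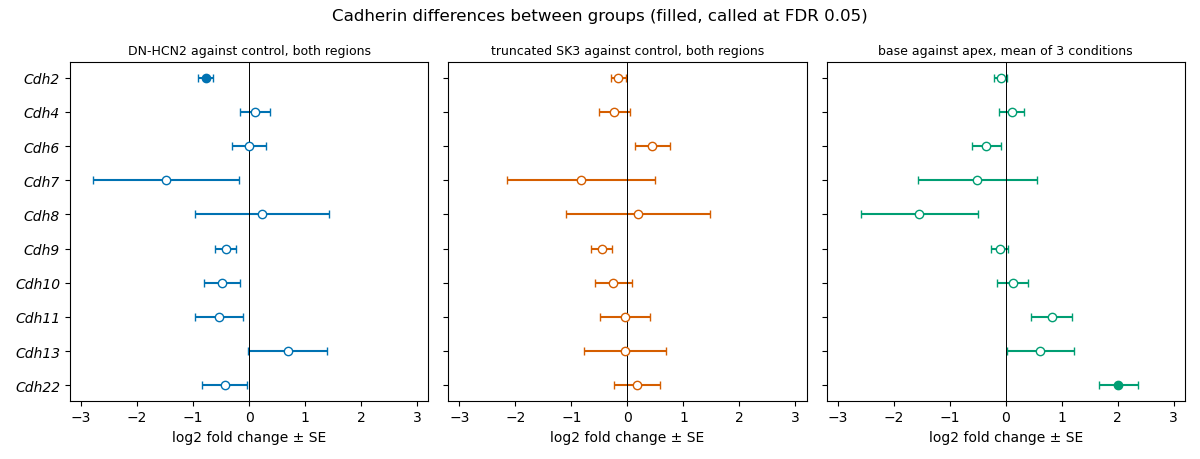
Log2 fold change (points) and standard error (bars) of the 10 cadherin genes for DN-HCN2 against control over both regions, truncated SK3 against control over both regions, and base against apex averaged over 3 conditions; filled points passed a false discovery rate of 0.05. Cdh2 at -0.78 in the first panel and Cdh22 at 2.01 in the last were the only filled points.

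Cdh6, a type II cadherin, was spread by a single library. Truncated SK3 apex replicate 1 had 145 CPM, while the other two libraries of its group had 39.3 and 21.9 CPM and the remaining 18 libraries lay between 23.8 and 73.3 CPM. For truncated SK3 over both regions the estimate was 0.45 on the log2 scale (SE 0.308, adjusted p 0.674 by edgeR) and turned to -0.16 without that library. In the base, the truncated SK3 libraries (56.5, 55.7 and 51.3 CPM) all lay above the control base libraries (33.6 to 41.8 CPM), with a log2 difference of 0.52 that did not pass (SE 0.436, adjusted p 1.00).

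Cdh4, the second type I member, ranged from 8.61 to 43.7 CPM with a median of 26.9 CPM, and its groups overlapped in all comparisons. Its log2 fold changes over both regions were 0.11 for DN-HCN2 (SE 0.267) and -0.23 for truncated SK3 (SE 0.279). Cdh10, a type II cadherin, ranged from 4.06 to 21.1 CPM, with a log2 fold change of -0.48 under DN-HCN2 (SE 0.324, edgeR adjusted p 0.413).

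The 3 least abundant members were too variable for a comparison to be resolved. Cdh13 ranged from 0.201 to 16.0 CPM, and both extremes were DN-HCN2 base libraries, replicates 1 and 3. Its truncated SK3 base libraries (3.87, 5.65 and 3.87 CPM) all lay just above those of the apex (3.26, 3.81 and 2.19 CPM), a log2 difference of 0.53 that did not pass (SE 1.12, edgeR adjusted p 0.939). Cdh8 reached 7.74 CPM in truncated SK3 apex replicate 3 and was at 0 counts in 5 libraries, and Cdh7 reached 2.92 CPM in control apex replicate 4 and was also at 0 counts in 5. The biological coefficient of variation, the relative spread between libraries of a group after counting error is removed, was 0.902 for Cdh13, 1.47 for Cdh8 and 1.51 for Cdh7, against 0.2 for Cdh2, 0.261 for Cdh9, 0.529 for Cdh22 and a median of 0.377 over all tested genes.

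The other classical cadherins numbered 9 genes, all tested, and 2 of them fell under DN-HCN2 over both regions while none rose, beside 3.61% of all genes called lower and 2.45% called higher. Cdh20, a type II cadherin, had the lowest fitted value of the 9. Control base libraries had 5.06, 5.58, 4.89 and 5.77 CPM of Cdh20, while the 3 DN-HCN2 base libraries held 1, 0 and 0 counts. From pooled counts of 291 and 1, the level was 195 times higher in control base, with an exact 95% interval from 34.8 to 7740 that covers counting error only, and the edgeR adjusted p was 0.00413. The apex libraries held 2.51 to 3.47 CPM in control and 0.457 to 3.2 CPM under DN-HCN2, so the ranges overlapped. Truncated SK3 libraries held 0.888 to 4.16 CPM in the base, also all below control base, and 1.94 to 8.62 CPM in the apex. For DN-HCN2 over both regions the edgeR adjusted p of Cdh20 was 0.00237 against control and 0.016 against truncated SK3. The call against truncated SK3 was lost by limma-voom (adjusted p 0.0603), with only the groups compared (0.207), without the 2 macrophage-rich libraries (0.125) and without the 4 oligodendrocyte-rich ones (0.096). The Cdh20 call in the base against control was lost without the macrophage-rich libraries (adjusted p 0.113) and without the oligodendrocyte-rich ones (0.214). In base against apex under DN-HCN2, where 0.1% of all genes were called lower, Cdh20 was also called (edgeR adjusted p 0.0472), but in only 2 of 7 fits that left out 1 library: the call was lost without DN-HCN2 apex replicate 2, 3 or 4 or DN-HCN2 base replicate 2 or 3.

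Cdh19, a type II cadherin known from the Schwann cell lineage, had 13.9 to 26 CPM in control base and 1.94, 2.41 and 2.11 CPM in DN-HCN2 base. Cdh19 fell by 3.0 on the log2 scale there (SE 0.686, edgeR adjusted p 0.0269) and by 1.78 over both regions (SE 0.436, adjusted p 0.0199). The base call was lost in 5 of 7 fits, without control base replicate 3 or 4 or any 1 of the 3 DN-HCN2 base libraries, with adjusted p up to 0.0848, and by limma-voom (0.118), without the macrophage-rich libraries (0.235) and without the oligodendrocyte-rich ones (0.659). Truncated SK3 base libraries held 6.22 to 11.4 CPM of Cdh19, also all below control base. The apex libraries held 1.51 to 9.60 CPM under truncated SK3 and 8.64 to 16.6 CPM in control. No truncated SK3 difference of Cdh19 from control was called by edgeR. Schwann and satellite glia markers were lower in the same DN-HCN2 base libraries, as given beside Cdh2, and summed to 18217 to 42600 CPM in truncated SK3 base. Their part in the Cdh19 result was not tested. Cdh1 (E-cadherin), at 97.8 CPM on average, had a log2 fold change of 0.01 under DN-HCN2 (SE 0.229, adjusted p 0.987).

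Of the 9 other cadherins, 2 were called lower in DN-HCN2 against control in the base (1.3% of all genes), 1 lower against truncated SK3 (0.434%) and 1 lower in base against apex under DN-HCN2 (0.1%), and none in the 9 comparisons not named here by edgeR. In those 9, between 0 and 3 of the 9 genes had an unadjusted p under 0.05, beside 3.64% to 14.4% of all genes, DESeq2 called 1 in the DN-HCN2 interaction and 1 in base against apex over 3 conditions, and limma-voom called none.

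The catenins and other cadherin partners comprised 15 tested genes, of which 1 rose and 1 fell under DN-HCN2 over both regions, beside 2.45% of all genes called higher and 3.61% called lower. At an unadjusted p under 0.05 there were 3 of 15, near the 22% of all genes. Jup, which encodes plakoglobin, a relative of beta-catenin, rose by 1.39 on the log2 scale (SE 0.353, edgeR adjusted p 0.0259). Its 3 DN-HCN2 base libraries (65.5, 54.9 and 58.3 CPM) lay above all 4 control base libraries (16.3 to 29.2 CPM). Supporting cell and otic epithelium markers summed to 2478, 285 and 1139 CPM in the same DN-HCN2 base libraries and to between 48.8 and 399 CPM in control base, and their part in the Jup result was not tested. In the apex its highest value, 132 CPM, came from DN-HCN2 apex replicate 1, the library richest in supporting cell markers. The Jup call was lost without that library, control apex replicate 4 or control base replicate 1, 2 or 4, with adjusted p up to 0.0572. Mean Jup in apex and base was 61.4 and 29.3 CPM under truncated SK3, where it was not called against control by edgeR. These means were 61.3 and 59.6 CPM under DN-HCN2, and 26.5 and 20.2 CPM in control.

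Adam10, a protease that sheds the N-cadherin ectodomain, fell by 0.48 on the log2 scale (SE 0.13, edgeR adjusted p 0.0345), from a mean of 169.6 CPM in control to 122 CPM. That call stood in 6 of 15 fits that left out 1 library and was lost without control apex replicate 1 or 4, control base replicate 1, 3 or 4, DN-HCN2 apex replicate 1 or 4, or DN-HCN2 base replicate 2 or 3. The calls of Cdh19, Cdh20, Jup and Adam10 over both regions did not pass without the 2 macrophage-rich or without the 4 oligodendrocyte-rich libraries, while the log2 differences kept their direction. They were -1.84 and -1.65 for Cdh19, -3.44 and -4.04 for Cdh20, 1.46 and 1.49 for Jup, and -0.40 and -0.41 for Adam10. The Adam10 call was also lost after correction for GC content and length, at -0.33 (adjusted p 0.112). The core catenins did not pass under DN-HCN2. Ctnnb1 (beta-catenin) had a log2 fold change of 0.13 (SE 0.168, edgeR adjusted p 0.702), Ctnna2 (alpha-N-catenin) 0.05 (SE 0.17), Ctnnd1 (p120-catenin) -0.36 (SE 0.186) and Ctnnd2 (delta-catenin) -0.27 (SE 0.251). The longest transcript of Ctnnd1 shares 69.5% of its 50-base stretches with a readthrough gene, so its counts are uncertain. No partner was called by edgeR in the other 12 comparisons, where 0 to 3 of 15 had an unadjusted p under 0.05, beside 3.64% to 18.5% of all genes; DESeq2 called 2 in DN-HCN2 against control in the base, 1 against truncated SK3 and 1 in base against apex over 3 conditions, and limma-voom called none of them.

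**Figure D5:**
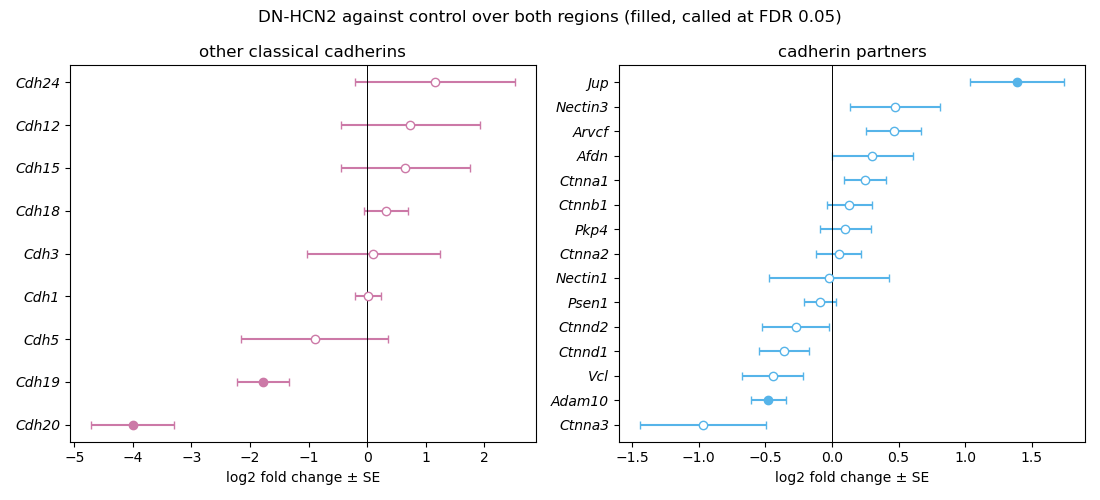
Log2 fold change (points) and standard error (bars) under DN-HCN2 against control over both regions for 9 other classical cadherins, left, and 15 cadherin partners, right; filled points passed a false discovery rate of 0.05. Cdh20 and Cdh19 lie lowest on the left, Jup is highest on the right, and the size of the Cdh20 value depends on libraries with 0 counts.

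The genes whose levels followed each member most closely were found by Pearson correlation of log2(CPM + 1) over the 21 libraries, which share their regions, viruses and cell mixtures. These correlations describe the libraries and carry no test. Cdh2 was most like Sec23a (r = 0.873), Hps5 (r = 0.872) and Tmx3 (r = 0.862). Cdh22 was most like Hspb8 (r = 0.845), Synm (r = 0.828) and Parm1 (r = 0.814). Cdh11 was most like Wscd1 (r = 0.86) and Cdh6 most like Rarb (r = 0.806). The closest matches of the other members were Maml2 for Cdh10 (r = 0.793), Ano10 for Cdh13 (r = 0.764), Arl5b for Cdh8 (r = 0.741), Adgrb3 for Cdh4 (r = 0.731), Fhl1 for Cdh9 (r = 0.709) and Kcnc2 for Cdh7 (r = 0.697). Among pairs of members, Cdh10 and Cdh11 were most alike (r = 0.665) and Cdh8 and Cdh11 least alike (r = -0.599).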

How the data were processed

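The authors deposited 1 table of read counts per gene, whole numbers that were not normalized, for 21 Smart-seq2 libraries. Per the submitters' processing notes, the tools were Trimmomatic, HISAT2 and DESeq2 (no versions) and the builds GRCm38 and mm10; the counter, annotation and strand setting are not given in the sources used here. The 10 members and the gene lists were chosen with earlier results of these data known. The named genes were the 10 members, every called gene of the 2 lists, 4 core catenins, and for each member the 3 tested genes most like it among those averaging 10 CPM or more, of which the text gives part.

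Groups follow the titles. Genes kept by filterByExpr (14968 of 21878; 3555 were at 0 throughout) were normalized by TMM and modelled in edgeR 4.0.16 (robust quasi-likelihood, R 4.3.3), with 1 mean per group over all 21 libraries. P-values in 13 comparisons were adjusted by the Benjamini-Hochberg method over all tested genes and called at 0.05. CPM is the count divided by the scaled total of tested genes, per 1000000 counts. Exon lengths and coordinates are from GENCODE M21. Afdn was read under its older symbol. Intervals of log2 differences are 1.96 SE to either side. The labels call the libraries biological replicates without naming animals, so p-values measure the spread between libraries. No 2 libraries of a group were alike within sampling noise. The code was tested on simulated data. Alternatives were RLE factors, no filter, 10 CPM in 3 libraries, DESeq2 1.42.0, limma-voom (limma 3.58.1), only the groups compared, the replicate block and each library left out; 3 more were chosen after seeing the data. Figures used matplotlib 3.10.9.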

Additional observations from a re-analysis of the deposited data

Results flagged for a closer look

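Among 30 sets of 4 libraries (10 members in 3 groups), 4 held a library set apart from its group by a gap larger than Dixon's limit at the 95% level, and chance flags about 1 in 20 sets. Cdh9 was low in control apex replicate 4, at 55.4 CPM, and high in DN-HCN2 apex replicate 2, at 86.3 CPM. Cdh11 was low in DN-HCN2 apex replicate 3, at 11.9 CPM. Cdh7 was high in control apex replicate 4, at 2.92 CPM. No member's effect was called different between the regions.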

How the results depend on the processing

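The count of members called in DN-HCN2 against control over both regions was 1, from 1 to 2 with 1 library left out, and 0 without the 4 oligodendrocyte-rich libraries. In the base it was 1 with each library left out, and 0 without the 2 macrophage-rich or the 4 oligodendrocyte-rich libraries. Against truncated SK3 it was 0 under RLE factors, no filter, the replicate block, only the groups compared, both of those left-out sets and correction for GC content and length, and from 0 to 1 with 1 library left out. In base against apex over 3 conditions it was 0 without either set and from 1 to 2 with 1 library left out. In base against apex, DESeq2 called 1 member in control and 1 under truncated SK3, and limma-voom and only the groups compared called 1 in control. The left-out sets leave 1 library in control base or DN-HCN2 base, which is assumed to vary like the rest. Of 2834 single-gene values under alternatives, 2748 kept their side of the threshold and direction, 72 lost a call and 6 gained one; values not called and smaller than their standard error were not counted as reversed, and 203 of 2569 uncalled values changed sign. Direction reversed in 8 uncalled values. Without the oligodendrocyte-rich libraries Cdh7 became 2.0 (DN-HCN2, both regions) and 4.54 (base), and Cdh13 became -0.35 (base against apex). Without the macrophage-rich libraries Cdh13 became -1.08, also in base against apex. Without truncated SK3 apex replicate 1, Cdh6 became -0.16 (truncated SK3 against control), 0.16 (DN-HCN2 against truncated SK3) and 0.051 (base against apex), and Cdh11 became 0.33 (DN-HCN2 against truncated SK3); with each library left out in turn these ran from -0.16 to 0.66, from -0.66 to 0.16, from -0.49 to 0.051 and from -0.78 to 0.33. The cause was not tested. Whether the replicate numbers pair libraries was not settled. Searched over all other groups, 6 of 21 libraries were most like one of their own number. Libraries of the same virus from apex and base were also correlated by their departures from group means. The median r was 0.0804 for 10 pairs of the same number, with 5 over 0.1. It was -0.0117 for 27 pairs of different numbers, with 5 over 0.1. The replicate block also ties the numbers across viruses. With the replicate block, Cdh2 under DN-HCN2 had an adjusted p of 0.00712 over both regions and 0.0181 in the base, while over both regions Jup (0.06) and Adam10 (0.0636) lost their calls, as did Cdh19 in the base (0.0565) and Cdh20 in base against apex under DN-HCN2 (0.132). Over all genes, DN-HCN2 over both regions had 906 calls, 1661 by DESeq2, 1483 by limma-voom, 602 with the replicate block, 475 without the macrophage-rich and 56 without the oligodendrocyte-rich libraries, and 520 to 1429 with 1 library left out. DN-HCN2 in the base had 320 calls, 1101 by DESeq2, 141 with the block, 103 and 10 without those sets. Base against apex over 3 conditions had 173 calls, 571 by DESeq2, 79 by limma-voom, 80 with the block, 41 and 6 without those sets.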
